A study of Mus musculus with 6 samples.

Results

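The messages of 9 genes that govern the start of a caspase cascade were followed through the oocyte libraries: the inhibitor of apoptosis genes Birc2, Birc3, Birc6 and Xiap, their antagonist Diablo, the initiator caspase genes Casp2, Casp8 and Casp9, and Apaf1. They were chosen by name, with earlier results of these data already known. All 9 were found, among 14165 genes in a table of oocyte pools and 54658 gene entries in a table of single oocytes. Every library came from mouse oocytes at metaphase II (MII), the arrest in which an ovulated egg waits for fertilisation. One sample held 59 untreated single oocytes of aged mice and one held 35 untreated single oocytes of young mice. The other 4 were pools of 10 oocytes from young mice, 2 given a control small interfering RNA (siCtrl) and 2 given one against Plat (siPlat), the gene of tissue-type plasminogen activator. The labels gave neither ages in weeks, nor the strain, nor the animals, so the spread between pools may be technical and the p-values measure that spread alone.

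Caspases are proteases that lie dormant as precursors. On the mitochondrial route, cytochrome c binds Apaf1, which assembles into the apoptosome and activates caspase-9; on the receptor route, death receptors activate caspase-8; caspase-2 is activated on a separate platform, the PIDDosome. Inhibitor of apoptosis proteins carry BIR domains that bind caspases or their regulators, and Diablo, once released from mitochondria, binds those same domains and displaces the caspases. An MII oocyte makes almost no new RNA and lives on transcripts stored during growth.

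Birc2 and Birc3 are tandem neighbours on the minus strand of chromosome 9 in mm10, Birc2 at chr9:7818227-7837064 and Birc3 at chr9:7848699-7873186, with 11634 bases and 0 annotated genes between them. They encode the ubiquitin ligases cIAP1 and cIAP2, which act at tumour necrosis factor receptors. Their longest coding sequences shared an identical run of 114 bases, at positions 1111 to 1224 of 1836 in Birc2 (exon 5 of 8, chr9:7821098-7821211) and 1084 to 1197 of 1806 in Birc3 (exon 6 of 9, chr9:7854491-7854604). The run is printed because a read inside it cannot be given to either gene, with the identical bases in capitals and 30 bases of each gene on either side.
Birc2: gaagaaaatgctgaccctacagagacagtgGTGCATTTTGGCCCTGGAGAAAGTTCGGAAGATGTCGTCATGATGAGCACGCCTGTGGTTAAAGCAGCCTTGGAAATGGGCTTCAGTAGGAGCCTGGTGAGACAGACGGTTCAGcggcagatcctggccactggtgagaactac
Birc3: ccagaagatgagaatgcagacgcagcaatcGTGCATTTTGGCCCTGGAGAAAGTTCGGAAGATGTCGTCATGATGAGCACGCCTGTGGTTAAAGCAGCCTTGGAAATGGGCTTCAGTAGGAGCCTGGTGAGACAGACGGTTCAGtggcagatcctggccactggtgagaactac
Of the 50-base windows of the Birc2 coding sequence, 65 also occurred in Birc3, and between Birc2 or Birc3 and Xiap there were 0. Birc2 and Birc3 levels are therefore uncertain by the reads of this stretch, while Xiap is not touched by it.

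The sequences just before the starts of the same neighbours are printed because their transcripts stood far apart in level, as given below. RefSeq (GRCm38.p6) lists a start for all 9 genes. The 250 bases before the first listed start of Birc2 (chr9:7837058-7837307, minus strand) held 31 CpG dinucleotides and 68.4% G and C, and those before the start of Birc3 (chr9:7873171-7873420, minus strand) held 6 CpG and 43.6%, against a median of 6 CpG and 52.4% over all listed promoters. Capitals mark CpG.
Birc2 promoter: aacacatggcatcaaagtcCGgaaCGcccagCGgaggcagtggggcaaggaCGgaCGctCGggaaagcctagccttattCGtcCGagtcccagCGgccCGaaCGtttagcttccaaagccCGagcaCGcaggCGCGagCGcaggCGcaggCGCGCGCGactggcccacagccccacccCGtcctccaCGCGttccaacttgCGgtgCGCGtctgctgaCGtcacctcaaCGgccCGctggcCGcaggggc
Birc3 promoter: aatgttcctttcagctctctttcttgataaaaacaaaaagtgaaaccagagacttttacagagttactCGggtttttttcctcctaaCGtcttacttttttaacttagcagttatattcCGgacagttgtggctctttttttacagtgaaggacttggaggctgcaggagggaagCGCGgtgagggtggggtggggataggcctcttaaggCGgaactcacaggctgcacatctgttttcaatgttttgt
Neither CCAAT (in 33.8% of all listed promoters, both strands searched) nor TATAAA (in 12.4%) was found in either window. The absence says only that these letters are not in these windows.

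The libraries differed in depth and state. The pools held 12142884 to 17475952 gene counts, young oocytes 5480050 to 11894782 and aged oocytes 2018226 to 9502184. In 21 of the 59 aged oocytes, mitochondrially encoded genes took 6.78 to 61.6% of gene counts, against at most 2.97% in the other 38 and 1.92% in the young, so the aged sample is given whole and split at 5%. The 21 also had fewer genes with a count (7385 to 13849, against 14724 to 17623 in the 38 and 14140 to 17575 in the young) and a lower sum of 11 oocyte markers (774 to 5171 CPM, the usual scaling of a gene's counts to all gene counts of its library, against 15693 to 25484 CPM in the 38 and 16355 to 25021 CPM in the young). All 11 oocyte markers had counts in every group. Of 13 cumulus and granulosa markers, Foxl2, Amh, Amhr2 and Fshr had 0 counts in young oocytes and 2 to 45 summed counts in aged ones, while Inha (66 and 4 counts), Ptx3 (10 and 0), Fst (15 and 1) and Ptgs2 (217 and 65) had more counts in young than in aged. The summed list stood at 0.232 to 115 CPM over single oocytes, higher in the young and the 38 (medians 83.4 and 84.8 CPM) than in the 21 (32.03 CPM), most of it Cyp19a1 and Nr5a2. Of 8 stroma, theca and endothelium markers, 5 had counts in the young, 6 in the 38 and 7 in the 21, and Cyp17a1 had 0 in both ages. Their sum, mostly Pecam1, stood at 98.7 to 230.3 CPM in the young (median 168) and 70.1 to 172 CPM in the 38 (median 107). In the 21 it stood at 0 to 29.97 CPM (median 3.90), in the same order as Birc3. Of the list, only Pecam1 (47353 summed counts in young and 27441 in aged oocytes) and Kdr (1891 and 1628) had fewer in aged. Dcn (439 and 791), Pdgfra (162 and 220), Col1a1 (34 and 49), Col1a2 (0 and 7) and Cdh5 (0 and 6) had more. Of 9 blood and immune markers, 7 had counts in the young and 5 in each part of the aged sample. Their sum stood at 4.74 to 21.2 CPM in the young (median 12.2) and 3.82 to 18.96 CPM in the 38 (median 9.77). In the 21 it stood at 0 to 129.9 CPM (median 1.05). Hba-a1 had 20 summed counts in young and 765 in aged oocytes, Hbb-bs 16 and 333 and Lyz2 0 and 29. C1qb had 3033 in young and 2248 in aged oocytes, and Cd68 794 and 568. The part of other cells in the results below was not tested. The knockdown was present in both siPlat pools, with Plat at 441 and 439 CPM in siCtrl against 51.3 and 39.0 CPM in siPlat. In the pools 3 of the 11 oocyte markers were called lower in siPlat by edgeR (1.41% of all tested genes) and 0 higher (2.13%). The 3 were Mos, Zp1 and Gdf9, with log2 fold changes of -1.64, -1.31 and -0.84. Both siPlat pools were below both siCtrl pools for 8 of the 11 (25.8% of all tested genes) and above for 2 (23.6%). The summed level of the 11 stood at 23933 and 25508 CPM in siCtrl and 25767 and 22522 CPM in siPlat. Its largest terms, Dppa3 and Oosp1, had log2 fold changes of 0.39 and 0.27, neither called. The sums of 2 other lists were lower in both siPlat pools: blood and immune markers (2 of 9 in the table) summed to 8.30 and 8.85 CPM in siCtrl and 4.78 and 3.96 CPM in siPlat, and stroma, theca and endothelium markers (5 of 8) to 23.80 and 23.81 CPM in siCtrl and 16.96 and 14.46 CPM in siPlat. Cumulus and granulosa markers (5 of 13) summed to 40.57 and 51.4 CPM in siCtrl and 35.99 and 53.05 CPM in siPlat. By edgeR 0 genes of these other lists were called, with 2 at an unadjusted p under 0.05, C1qb and Kdr (edgeR adjusted p = 0.190 and 0.09997), both lower in siPlat. The part of all these lists in the siPlat results was not tested.

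Birc3 was by far the most abundant of these messages. It stood at 897 to 1494 CPM in single young oocytes (median 1271), while Birc6, the next by this measure, stood at 72.9 to 180.2 CPM (median 99.4). To compare genes, levels were divided by the length in kilobases of each gene's transcript with the longest coding sequence. In falling order the young medians were 477 CPM per kb for Birc3, 10.6 for Casp8, 6.79 for Birc6 and 4.98 for Casp2. Then came 2.87 for Xiap, 2.697 for Casp9, 2.53 for Birc2, 1.93 for Apaf1 and 1.14 for Diablo. The place of Diablo holds for this table only: in siCtrl pools it had rank 2, at 12.9 CPM per kb. Its overlap with another entry of the single-oocyte table, Gm49027, is given below. Only Birc3 was separate from the gene after it in all 35 oocytes; each other neighbouring pair overlapped, and Xiap was above Casp9 in 21 of 35 oocytes and Casp9 above Birc2 in 19 of 35. Birc3 made up 82.2 to 93.4% of the counts of the 4 inhibitor genes in each young oocyte and 87.5 to 89.3% in each pool. Its coefficient of variation over young oocytes was 0.14, and that of its neighbour Birc2, which has far fewer counts, was 0.35.

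**Figure D1:**
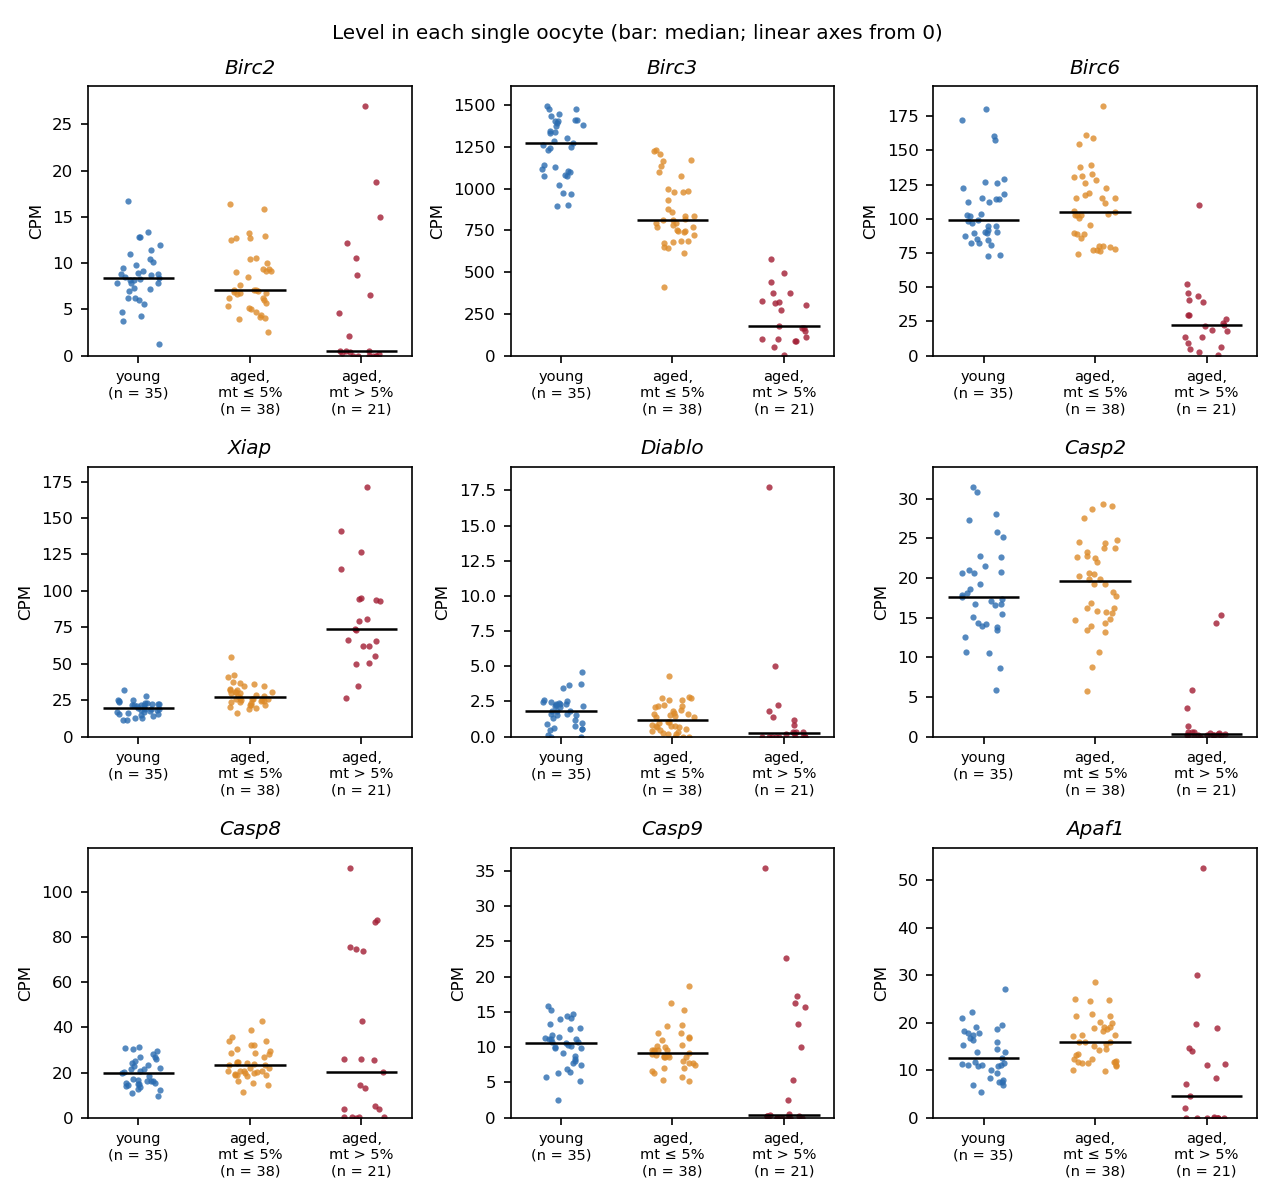
Level of each of the 9 genes in every single oocyte, in CPM on linear axes that start at 0, for young oocytes (n = 35) and for aged oocytes with a mitochondrial share (mt) of at most 5% (n = 38) or above 5% (n = 21). Each point is 1 oocyte and the bar is the median; Birc3 steps down and Xiap steps up from left to right, and Casp2, Casp9 and Birc2 lie near 0 in most of the 21.

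Each age was 1 sample, so the comparison of aged with young oocytes has no test and no replicate check. Log2 ratios are of the CPM of counts summed over oocytes, with a pseudocount of 1 CPM. The 95% intervals of summed levels are exact Poisson intervals. They cover counting error only, and are too narrow even for that, since PCR reads without molecular identifiers are not independent. One of the 9 genes was at least 1.5-fold higher in the aged sample, Xiap, against 9.45% of 8303 genes with at least 5 CPM, and 1 was at least 1.5-fold lower, Birc3, against 9.38%. Diablo was under 5 CPM in both ages and is not among the 8303. The median log2 ratio of the 9 was -0.15 (6 below 0), and that of all 8303 genes -0.07 (56.4% below 0). Without the 21 high-share oocytes the median of the 9 was 0.05 (4 below 0), against 0.08 for all genes (40.2% below 0), and 0 of the 9 passed 1.5-fold, against 8.87% higher and 1.87% lower of 8413 genes. With nuclear gene counts as the total, which leaves mitochondrial RNA out of it, the same genes passed: Xiap higher (13.3% of all genes) and Birc3 lower (5.04%) with all aged oocytes, and 0 of the 9 without the 21 (9.12% higher and 1.83% lower of all genes). No member had aged oocytes wholly apart from young ones, against 0.119% of genes wholly higher in the 38.

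Birc3 was lower in the aged sample, with a summed level of 708 CPM (interval 705 to 710.4), where the young sample had 1262 CPM (1258 to 1266). The log2 ratio was -0.83. Over single aged oocytes it ranged from 1.79 to 1227 CPM (median 723), and all 59 were below the young median. Of the 59, 46 were below every young oocyte and 0 were above the highest. In the 38 with a low mitochondrial share it ranged from 409 to 1227 CPM (median 809), the log2 ratio was -0.53, and 25 of the 38 were below every young oocyte. Both kinds of aged oocyte were thus lower, and the 38 overlapped the young.

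Xiap, at chrX:42059679-42109656, encodes the family member that inhibits caspase-9 directly, and it differed the other way. It stood at 11.2 to 32.3 CPM in young oocytes (median 19.6) and at 15.9 to 171 CPM in aged ones (median 32.2), and 29 of the 59 aged oocytes were above every young oocyte. The summed level was 42.8 CPM (42.1 to 43.5) in aged and 19.3 CPM (18.8 to 19.8) in young oocytes, for a log2 ratio of 1.11. In the 38 it ranged from 15.9 to 54.5 CPM (median 27.0), with a log2 ratio of 0.54 and 9 of 38 above every young oocyte. Only 2 of the 59 aged oocytes, both among the 38, were below the young median. These directions hold relative to other genes. Scaled to counts of ERCC RNAs, which are synthetic spike-ins, the log2 ratio of Xiap turned to -0.31. The median of all genes moved from -0.07 to -1.43, so that Xiap was 1.11 above that median and Birc3 0.88 below it. All 9 genes were below 0 on this scale, both with all aged oocytes and with the 38 alone. In the 38 Xiap stood at -0.26, Casp8 at -0.47 and Apaf1 at -0.51, against a median of -0.71 for all genes.

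The number of Birc3 counts per Xiap count within an oocyte needs no total at all. This ratio, chosen after the values were seen, was 34.5 to 126 in young oocytes (median 64.6), 7.51 to 60.4 in the 38 (median 28.4) and 0.0323 to 11.6 in the 21 (median 3.37). Young oocytes and the 21 did not overlap, and nor did they for Birc3 alone (897 to 1494 and 1.79 to 579 CPM). Whether other pairs of genes would part these groups too was not tested. In the pools the control ratios were 109 and 50.8, the siPlat ratios 50.2 and 54.3, all within the range of young oocytes.

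**Figure D2:**
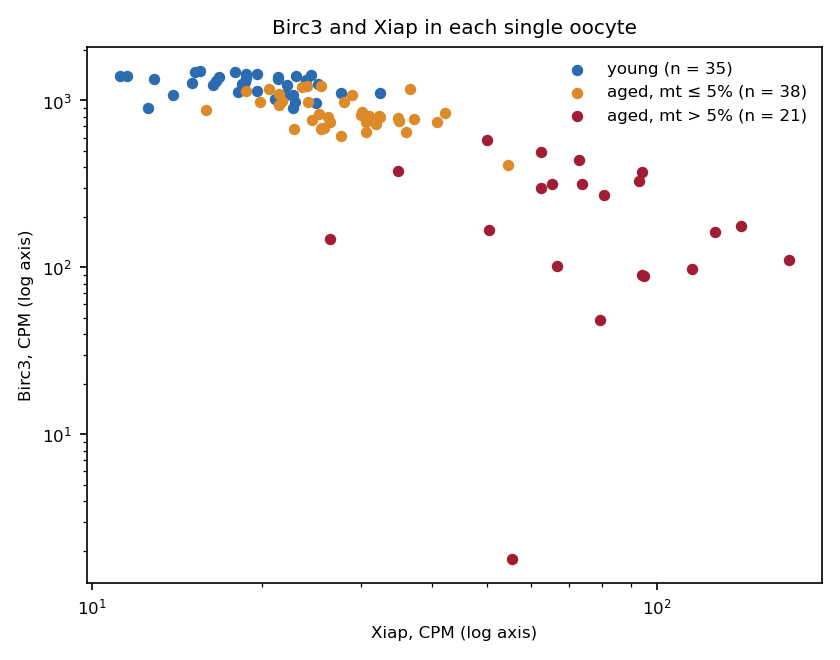
Birc3 (vertical) against Xiap (horizontal) in each single oocyte, both in CPM on log axes, for 35 young oocytes, 38 aged oocytes with a mitochondrial share (mt) of at most 5% and 21 above 5%. Young oocytes lie at the upper left, the 38 between, and the 21 at lower Birc3 and mostly higher Xiap, with 1 oocyte at 1.79 CPM of Birc3.

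The other 2 inhibitor genes differed little between ages outside the 21. Birc6, at chr17:74528295-74703356, encodes a giant ubiquitin-conjugating enzyme that also acts on Diablo and caspase-9. It stood at 72.9 to 180.2 CPM in young oocytes and at 74.6 to 182 CPM in the 38, a log2 ratio of 0.05, and the whole aged sample was at -0.28. Birc2 stood at 1.22 to 16.7 CPM in young oocytes (median 8.43) and 2.53 to 16.4 CPM in the 38 (median 7.09), with log2 ratios of -0.03 in the 38 and -0.15 in the whole sample. Both ranges of the 38 lay almost wholly within those of the young.

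Among the genes that promote death, Casp8 had the highest median per length in young single oocytes and the highest age ratio. In siCtrl pools Diablo (12.9 CPM per kb) stood above it (9.50). That order depends on the length used: the transcripts taken were 1576 bases for Diablo and 1849 for Casp8. All annotated exons together covered 6166 and 2893 bases. The part of the overlap of Diablo with Gm49027, given below, in this order was not tested. Casp8 (chr1:58795374-58847503) stood at 9.77 to 31.4 CPM in young oocytes (median 19.6) and 11.2 to 43.1 CPM in the 38 (median 23.3), with 7 of the 38 above every young oocyte and a log2 ratio of 0.32 (0.43 with all 59). Apaf1 (chr10:90989311-91082770) stood at 5.39 to 27.2 CPM in young oocytes (median 12.7) and 9.77 to 28.5 CPM in the 38 (median 16.0), a log2 ratio of 0.27 (0.09 with all 59). For both genes the ranges overlapped for most oocytes, and neither reached 1.5-fold.

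Casp9 (chr4:141793612-141815976), the caspase of the apoptosome, stood at 2.50 to 15.8 CPM in young oocytes (median 10.5) and 5.14 to 18.6 CPM in the 38 (median 9.13), a log2 ratio of -0.11. Casp2 (chr6:42264985-42282508), which has been studied in mouse oocytes as a mediator of drug-induced death, stood at 5.84 to 31.5 CPM in young oocytes (median 17.6) and 5.71 to 29.3 CPM in the 38 (median 19.6), a log2 ratio of 0.07. Neither caspase separated the 38 from the young. With all 59 the ratios were -0.15 and -0.30.

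Diablo (chr5:123509765-123524176) had few counts in single oocytes, with a median of 17 in young ones and 7 in the 38. It stood at 0 to 4.62 CPM in young oocytes (median 1.79, 33 of 35 with a count). In the 38 it stood at 0 to 4.32 CPM (median 1.21, 35 of 38 with a count). The log2 ratio of -0.23 between these is on a level of 1 to 2 CPM. In GENCODE M21, 75.7% of the 1576 bases of its transcript with the longest coding sequence also belong to Gm49027, a gene on the same strand that is an entry of the single-oocyte table, with 8 summed counts in young and 4 in aged oocytes, and not one of the table of pools. Whether reads shared by both genes were left uncounted was not tested.

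**Figure D3:**
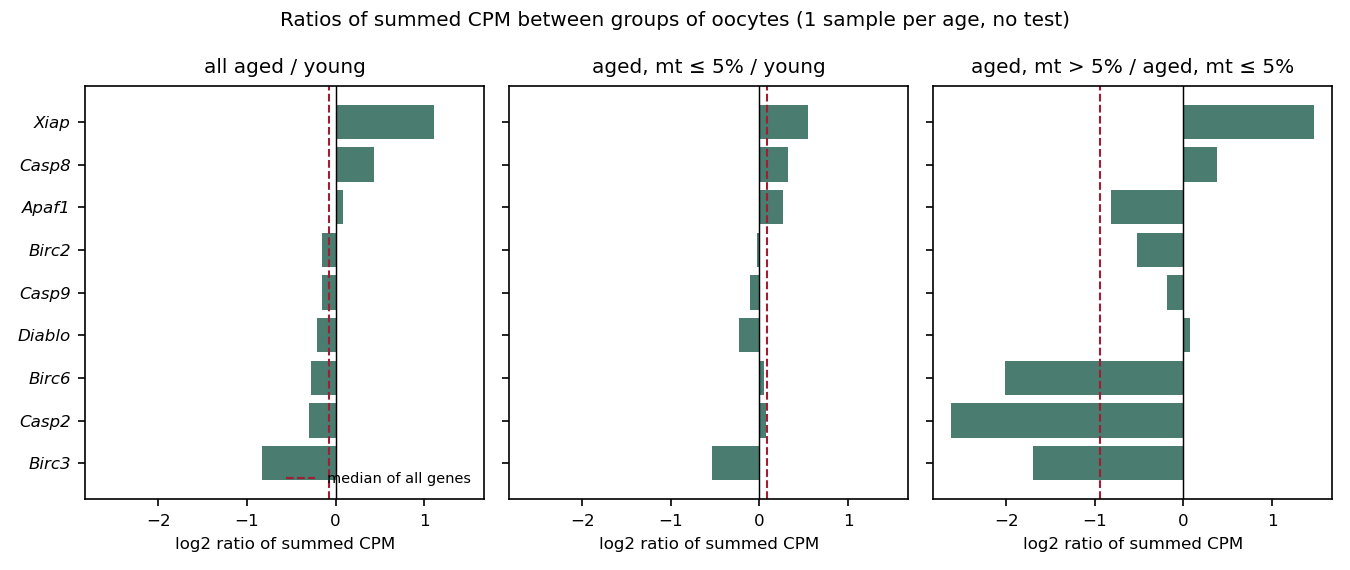
Log2 ratio of summed CPM (pseudocount 1 CPM) of the 9 genes for all aged over young oocytes, aged with a mitochondrial share (mt) of at most 5% over young, and aged above 5% over aged at most 5%. The bars are single values without error because each age is 1 sample, and the dashed line is the median of all genes with at least 5 CPM (-0.07, 0.08 and -0.94); Xiap is the highest and Birc3 the lowest in the first 2 panels.

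Within the aged sample, the 21 oocytes with a high mitochondrial share are compared with the other 38, again as 2 parts of 1 sample and with no test. Most genes were lower there: of 8087 genes, 58.5% were at least 1.5-fold lower in the 21 than in the 38 and 14.8% at least 1.5-fold higher. Against this, 4 of the 9 genes were at least 1.5-fold lower (Casp2, Birc6, Birc3 and Apaf1) and 1 was higher (Xiap). The median log2 ratio was -0.52 for the 9 and -0.67 for the 8 with at least 5 CPM, which leave out Diablo. That of all genes, also with at least 5 CPM, was -0.94. With nuclear totals the medians were -0.10 for the 9, -0.23 for the 8 and -0.48 for all genes. By this measure 3 of the 9 were lower (Casp2, Birc6 and Birc3, against 47.7% of all genes) and 2 higher (Xiap and Casp8, against 24.1%). Apaf1 and Casp8 thus depended on the total used. For 0 of the 9 were all of the 21 below or above all of the 38, against 16% of genes below and 0.655% above.

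Casp2 had the lowest ratio. It stood at 0 to 15.4 CPM in the 21 (median 0.358, 2 oocytes without a count) against 5.71 to 29.3 CPM in the 38, a log2 ratio of -2.62, and 18 of the 21 were below every one of the 38. Birc6 stood at 0.713 to 110.3 CPM in the 21 (median 22.4), a log2 ratio of -2.01, with 20 of 21 below every one of the 38. Birc3 stood at 1.79 to 579 CPM (median 178), a log2 ratio of -1.70, with 18 of 21 below. For these genes the remaining 1 to 3 of the 21 lay within the range of the 38.

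Xiap stood at 26.4 to 171 CPM in the 21 (median 73.6) against 15.9 to 54.5 CPM in the 38, a log2 ratio of 1.47 (1.96 with nuclear totals), and 17 of the 21 were above every one of the 38. It had a count in all 21, at 114 to 735 counts an oocyte. As a share of the 4 inhibitor genes it was 7.51 to 91.7% of counts in the 21 (median 21.2%), 1.46 to 8.72% in the 38 (median 2.87%) and 0.735 to 2.45% in young oocytes (median 1.42%).

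Casp8, Casp9, Apaf1 and Birc2 spread to both sides in the 21. Casp8 ranged from 0 to 110.8 CPM there, with 8 oocytes below every one of the 38 and 6 above. Casp9 ranged from 0 to 35.4 CPM, with 13 below and 2 above, and Apaf1 from 0 to 52.6 CPM, with 13 below and 2 above. Birc2 ranged from 0 to 27.0 CPM, with 13 below and 2 above. Their summed ratios of 0.38, -0.19, -0.82 and -0.52 are thus averages over unlike oocytes, and for Casp9 the median oocyte stood at 9.13 CPM in the 38 and 0.392 CPM in the 21 while the summed ratio was 1.14-fold. Diablo had 76 of its 146 counts in the 21 from 1 oocyte.

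Some of the 21 had no count for these genes. Birc2 had a count in 15 of 21 (71.4%), Casp9 in 14 (66.7%) and Apaf1 in 13 (61.9%), and each in 38 of 38 and 35 of 35 of the other oocytes. With every oocyte thinned to 1408044 nuclear gene counts, the lowest total of any, these numbers were 14, 11 and 12 of 21, and again 38 of 38 and 35 of 35. Casp2 had a count in 19 of the 21 (15 after thinning), Casp8 in 20 (20 after) and Diablo in 12 (10 after). Birc3, Birc6 and Xiap had a count in all 21, before and after thinning. Median nuclear totals before thinning were 3014740 in the 21, 6951380 in the 38 and 8462690 in the young. Fewer genes of any kind had a count in the 21, with a median of 9394 an oocyte against 16287.5 in the 38. Whether the genes named here were lost more often than others of like level was not tested.

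The comparison of siPlat with siCtrl pools asked whether these messages differ when Plat is depleted in young oocytes. In a pool, fewer oocytes with a message and less message per oocyte cannot be told apart. Pool levels are CPM after TMM scaling, given for pool 1 and then pool 2. By the quasi-likelihood test of edgeR, with p-values adjusted over 11136 genes, 0 of the 9 genes passed an adjusted p of 0.05, against 3.54% of all tested genes (2.13% higher and 1.41% lower in siPlat). At an unadjusted p under 0.05 there were 3 (Birc3, Birc6 and Diablo), against 18.8%. limma-voom called 0 of the 9, with 414 of 11136 genes called in all. DESeq2 called 1 of the 8 to which it gave an adjusted p, with 683 of 8113 genes called in all. The median log2 fold change of the 9 was -0.29 (6 below 0) and that of all tested genes -0.03 (52.2% below 0). Both siPlat pools were below both siCtrl pools for 5 genes, against 25.8% of tested genes, and above for 2, against 23.6%.

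Diablo came nearest to the threshold. It was at 19.5 and 21.03 CPM with the control RNA, against 10.2 and 10.8 CPM with siPlat, with no overlap. The means were 20.3 ± 1.06 and 10.5 ± 0.472 CPM (SD, n = 2 pools each). The log2 fold change was -0.95 (SE 0.26, 95% interval -1.51 to -0.38; edgeR adjusted p = 0.0713). DESeq2 gave an adjusted p of 0.0476, and over the 9 alternative settings the adjusted p ran from 0.0476 to 0.354.

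Among the inhibitor genes, Birc6 was at 64.3 and 55.1 CPM with the control RNA, against 36.2 and 42.3 CPM with siPlat, a log2 fold change of -0.61 (SE 0.20, edgeR adjusted p = 0.123). Over the 9 alternative settings the log2 fold change of Birc6 ran from -0.71 to -0.49. Birc3 was at 650.4 and 526 CPM with the control RNA, against 423 and 452 CPM with siPlat, a log2 fold change of -0.43 (SE 0.16, edgeR adjusted p = 0.173). For both genes the siPlat pools were below the siCtrl pools, and the difference did not pass the test.

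The intervals of Xiap and Birc2 included 0. Xiap was at 5.99 and 10.4 CPM with the control RNA, against 8.44 and 8.32 CPM with siPlat, a log2 fold change of 0.04 with an interval of -0.73 to 0.81. Birc2 was at 9.29 and 9.60 CPM with the control RNA, against 6.37 and 9.10 CPM with siPlat, a log2 fold change of -0.29 with an interval of -0.99 to 0.42. Both siPlat pools of Xiap lay between its siCtrl pools, and 1 siPlat pool of Birc2 lay close below its siCtrl pools. A level 1.5-fold lower lies within both intervals.

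**Figure D4:**
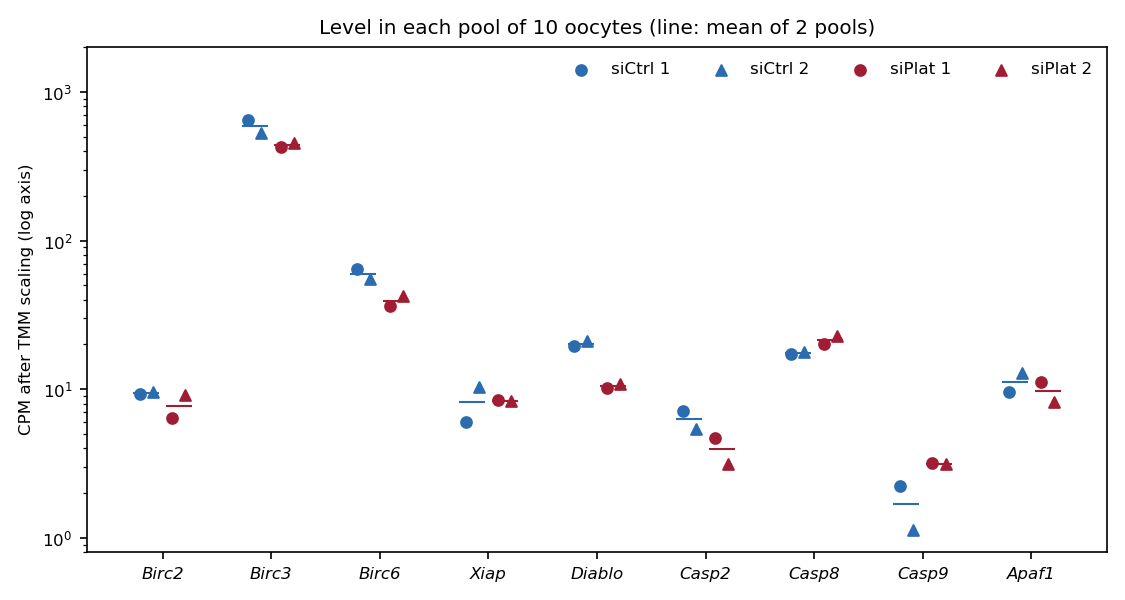
Level of the 9 genes in each of the 4 pools of 10 oocytes, in CPM after TMM scaling on a log axis, siCtrl in blue and siPlat in red, with a line at each mean of 2 pools. Birc3 stands at 423 CPM or more in every pool, the other genes at 64.3 CPM or less, and Diablo shows the widest gap between the groups relative to the spread within them.

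The caspases and Apaf1 did not pass either. Casp8 was at 17.3 and 17.8 CPM with the control RNA, against 20.2 and 22.8 CPM with siPlat (log2 fold change 0.29, interval -0.23 to 0.81). Casp2 was at 7.10 and 5.43 CPM with the control RNA, against 4.74 and 3.14 CPM with siPlat (-0.68, interval -1.55 to 0.20). Casp9 rested on few reads, 40 and 16 counts with the control RNA, against 37 and 40 with siPlat (0.90, interval -0.38 to 2.17). Apaf1 was at 9.62 and 12.8 CPM with the control RNA, against 11.2 and 8.24 CPM with siPlat (-0.21, interval -0.90 to 0.48). The edgeR adjusted p of these 4 ran from 0.407 for Casp2 to 0.791 for Apaf1, and at these depths a 2-fold lower level of Casp2 and a 2-fold higher level of Casp9 lie within their intervals.

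**Figure D5:**
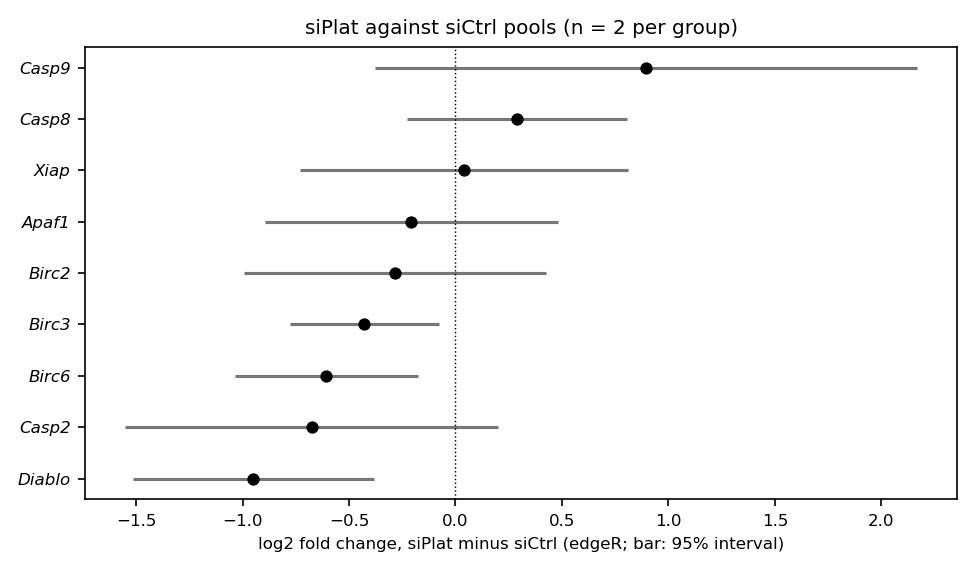
Log2 fold change of the 9 genes, siPlat minus siCtrl, from edgeR with its 95% interval (n = 2 pools per group), ordered by size. The intervals of Diablo, Birc6 and Birc3 lie below 0 before adjustment over all genes, and the other 6 include 0.

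The wider pathway was called in the pools at about the rate of all genes. Of 48 further genes fixed by name, 33 were in the table of pools and 27 were tested; 1 was called higher and 0 lower, against 2.13% and 1.41% of all tested genes. This was Otulin, which encodes the enzyme that removes linear ubiquitin chains at death receptor complexes. It rose from 10.7 and 15.9 CPM with the control RNA to 51.2 and 36.0 CPM with siPlat, a log2 fold change of 1.71 (SE 0.27, edgeR adjusted p = 0.00774; adjusted p from 1.73e-06 to 0.0378 over 9 alternatives). Ripk1, the kinase that Birc2 and Birc3 ubiquitinate, had a log2 fold change of -0.55 (edgeR adjusted p = 0.197). Casp6, another caspase gene, reached at most 1.73 CPM in the pools. Cycs, cytochrome c, was at 170 to 172 CPM in siCtrl and 148 to 194 CPM in siPlat. The protease gene Htra2, whose product binds inhibitor proteins as Diablo does, was at 16.8 to 21.9 CPM in siCtrl and 14.98 to 22.6 CPM in siPlat. Birc5, survivin of the chromosomal passenger complex, was at 539 to 661 CPM in siCtrl and 668 to 689.5 CPM in siPlat (log2 fold change 0.18, edgeR adjusted p = 0.603).

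In the single oocytes 21 of these 48 genes reached 5 CPM. With all aged oocytes 6 of the 21 were at least 1.5-fold higher than in young (Anp32a, Aven, Taok1, Ripk1, Traf3 and Hspa4) and 2 lower (Tnfrsf21 and Htra2), against 9.45% and 9.38% of all genes. Without the high-share oocytes 4 were higher (Anp32a, Hspa4, Birc5 and Aven) and 0 lower, against 8.87% and 1.87% of all genes, with a median log2 ratio of 0.29 against 0.08 for all genes. Anp32a encodes a regulator of apoptosome assembly and Aven a protein that binds Apaf1. Anp32a stood at 2.22 to 12.3 CPM in young oocytes and 4.85 to 25.2 CPM in the 38 (log2 ratio 1.06), with 28 of 38 above every young oocyte, and Hspa4 at 8.84 to 33.4 CPM and 19.04 to 72.5 CPM (1.03), also with 28 of 38. Casp6 was at 1.23 CPM in young oocytes and 1.45 CPM in the 38. Cycs was at 41.7 and 52.1 CPM and Htra2 at 19.3 and 15.1 CPM.

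Genes that varied most alike with a member over the 35 young oocytes could be given for the 3 members with a mean of at least 20 CPM. Among 5129 genes these were AU040320 for Birc3 (Pearson r = 0.89 over 35 young oocytes, 0.70 over the 38), Pan3 for Birc6 (0.90 and 0.81) and A730082K24Rik for Casp8 (0.77 and 0.40). The points share library depth: Birc3 itself had r = 0.62 with the log2 gene total over young oocytes, Birc6 -0.74 and Casp8 -0.71. Birc3 and Birc6 ran opposite to each other, with r = -0.60 in young oocytes and -0.64 in the 38.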

How the data were processed

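The authors deposited whole-number read counts per gene, not normalised, in a table of 4 pools and a table of 94 single-oocyte columns; libraries were made by Smart-seq2, per the labels' protocols, which name no molecular identifiers. STAR 2.7.10b, HTSeq 0.13.5 and mm10 are named per the submitters' processing notes, without roles; annotation and strand setting are not given in the sources used here. No 2 single libraries were identical. ERCC entries (92) were left out of gene totals. The pools were fitted over all genes with edgeR 4.0.16 in R 4.3.3 (TMM factors, robust quasi-likelihood test, minimum count 10 and minimum total 15, Benjamini-Hochberg), with DESeq2 1.42.0, limma 3.58.1 (voom), upper-quartile factors, no filter, a replicate block and each pool left out as alternatives; the fit was tested on simulated data. SE is the absolute log2 fold change over the square root of F. Single oocytes were summed per sample, with no test. Positions and transcript lengths come from GENCODE M21 (GRCm38), promoters from RefSeq. The 9 genes, the 48 pathway genes and the markers were chosen with earlier results of these data known. Named genes were the 9, pathway genes called in the pools or beyond 1.5-fold at 5 CPM between ages, and 6 fixed ones, some of which are not reported here. Precision is lowest where counts are few, as for Casp6 in the pools (5 to 22 counts) and for Birc2, Casp2 and Casp9 in aged oocytes of high mitochondrial share (median 2 counts).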

Additional observations from a re-analysis of the deposited data

How the results depend on the processing

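Of the 9 genes, 0 were called by edgeR and 0 by limma-voom, with upper-quartile factors or without a filter; DESeq2 called 1 (Diablo, of 8 with an adjusted p), and leaving out 1 pool gave 0 to 1 (Birc6 without siPlat 2). Calls over all genes were 394 by edgeR, 683 by DESeq2 and 157 to 1145 with 1 pool left out (157 without siCtrl 1, 160 without siCtrl 2, 713 without siPlat 1, 1145 without siPlat 2); the cause was not tested, and a group left with 1 pool is taken to vary like the other. Log2 fold changes that turned were those of Xiap (-0.31 to 0.48 with 1 pool left out, lowest without siCtrl 1) and Apaf1 (-0.45 to 0.013, above 0 at 0.013 without siCtrl 2 and 0.0094 without siPlat 2). The pool numbers were not shown to pair samples (correlation of deviations -0.098 for siCtrl 1 with siPlat 1); with the replicate block edgeR called 0 of the 9 and 273 genes in all.

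For aged against young, the median log2 ratio of the 9 was -0.15 and moved to -0.042 with nuclear totals and -1.36 with ERCC totals, where Xiap was at -0.31. Without the high-share oocytes it was 0.05, and moved to -0.71 with ERCC totals, 0.080 with the median over oocytes and -0.00018 with the split at 10%. The cause of these shifts was not tested, nor was it known whether each oocyte received the same amount of ERCC RNA. With 1 sample per age, no spread between animals is known. Diablo rests on 0 to 39 counts per young oocyte.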

Other observations

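Control pools and untreated young oocytes were counted in separate tables, so their levels are set side by side without a test. Mean siCtrl levels against summed young levels were 588 and 1262 CPM for Birc3, 59.7 and 104 CPM for Birc6, 8.18 and 19.3 CPM for Xiap, 6.27 and 18.3 CPM for Casp2 and 1.68 and 10.5 CPM for Casp9. Birc2 (9.44 and 8.56 CPM), Casp8 (17.6 and 19.3 CPM) and Apaf1 (11.2 and 13.4 CPM) were closer together. Diablo stood the other way, at 20.3 CPM in siCtrl and 1.80 CPM in young oocytes, beside the overlap with Gm49027 given above.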
